A study of Mus musculus with 12 samples.

Results

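Microglia identity genes are 10 genes by which resident macrophages of neural tissue are commonly recognised: Cx3cr1, P2ry12, Tmem119, Csf1r, Aif1, Trem2, Tyrobp, Itgam, Cd68 and Ptprc. The members were taken by symbol from the gene count table, which lists 53707 genes, and all 10 matched 1 row each. All 10 also passed the filter on low counts that left 21061 genes for the test between glucose levels.

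The retinas came from wild-type C57BL/6J mice at 28 days of age (P28), were freed of the sclera and the retinal pigment epithelium, and were kept as explants for 48 hours in Neurobasal-A medium with B27 and N2 supplements. Both groups shared this culture and differed only in glucose, which was 5 mM in one and 25 mM in the other. Each group held 3 biological replicates, and each replicate had 2 technical replicates, labelled as batch 1 and batch 2 with no word on what a batch is, which gave 12 total RNA libraries. The comparison asks how transcript levels in mature retina differ when more glucose is supplied.

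Microglia derive from yolk sac progenitors and, in the healthy retina, lie mainly in the plexiform layers, where they survey synapses and clear debris. Their survival depends on signals through the receptor Csf1r, and their resting state is marked by Cx3cr1, P2ry12 and Tmem119. Trem2 binds lipids and lipoproteins and signals through the adaptor Tyrobp, and this pathway is known for driving phagocytosis and the response of microglia to dying neurons.

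The 2 technical replicates of a sample were summed before testing, and the summed totals were 43002302 to 60098862 counts at 5 mM and 37944826 to 42451809 at 25 mM. Mitochondrial genes took 5.91% to 11.8% of the counts of a library at 5 mM and 7.94% to 15.4% at 25 mM. Levels are given as CPM, the count of a gene scaled to the library total and the sample's TMM (trimmed mean of M values) factor. Differences are log2 fold changes of 25 mM over 5 mM from edgeR's quasi-likelihood test over all 21061 genes, and a gene was called when its Benjamini-Hochberg adjusted p (FDR) was under 0.05. The members' summed CPM in batch 1 over that in batch 2 was 1.61, 1.47 and 0.929 in replicates 1, 2 and 3 at 5 mM and 1.33, 0.382 and 0.626 at 25 mM, so technical partners parted in most samples and furthest in 25 mM replicate 2, at 81.4 against 213 CPM. The lowest library of each group by this sum, batch 2 of 5 mM replicate 1 and batch 1 of 25 mM replicate 2, had stood apart in earlier results and was left out in turn. Because whole retina was measured, fewer microglia and less RNA of a gene per microglial cell cannot be told apart.

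Every member had a lower mean level at 25 mM than at 5 mM glucose, but none was called. The 10 fitted log2 fold changes ran from -1.68 for Trem2 to -0.25 for P2ry12, with a median of -1.03, where the median over all genes tested was -0.01. A value below 0 was found for 10 of 10 members and for 50.7% of all genes. At FDR under 0.05, 0 of 10 members were called, where 1.98% of all genes were called in either direction and 0.513% as lower at 25 mM. At an unadjusted p under 0.05, 7 of 10 members were lower, against 15.5% of all genes. A log2 fold change under -1 was found for 5 of 10 members and for 9.27% of all genes. The 3 replicates at 25 mM all lay under the 3 at 5 mM for 5 of 10 members (Cx3cr1, Tmem119, Aif1, Itgam and Ptprc), against 15.8% of all genes. The lowest FDR among the members was 0.0776 and the highest 0.628, and the lowest of any gene was 0.0217.

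**Figure D1:**
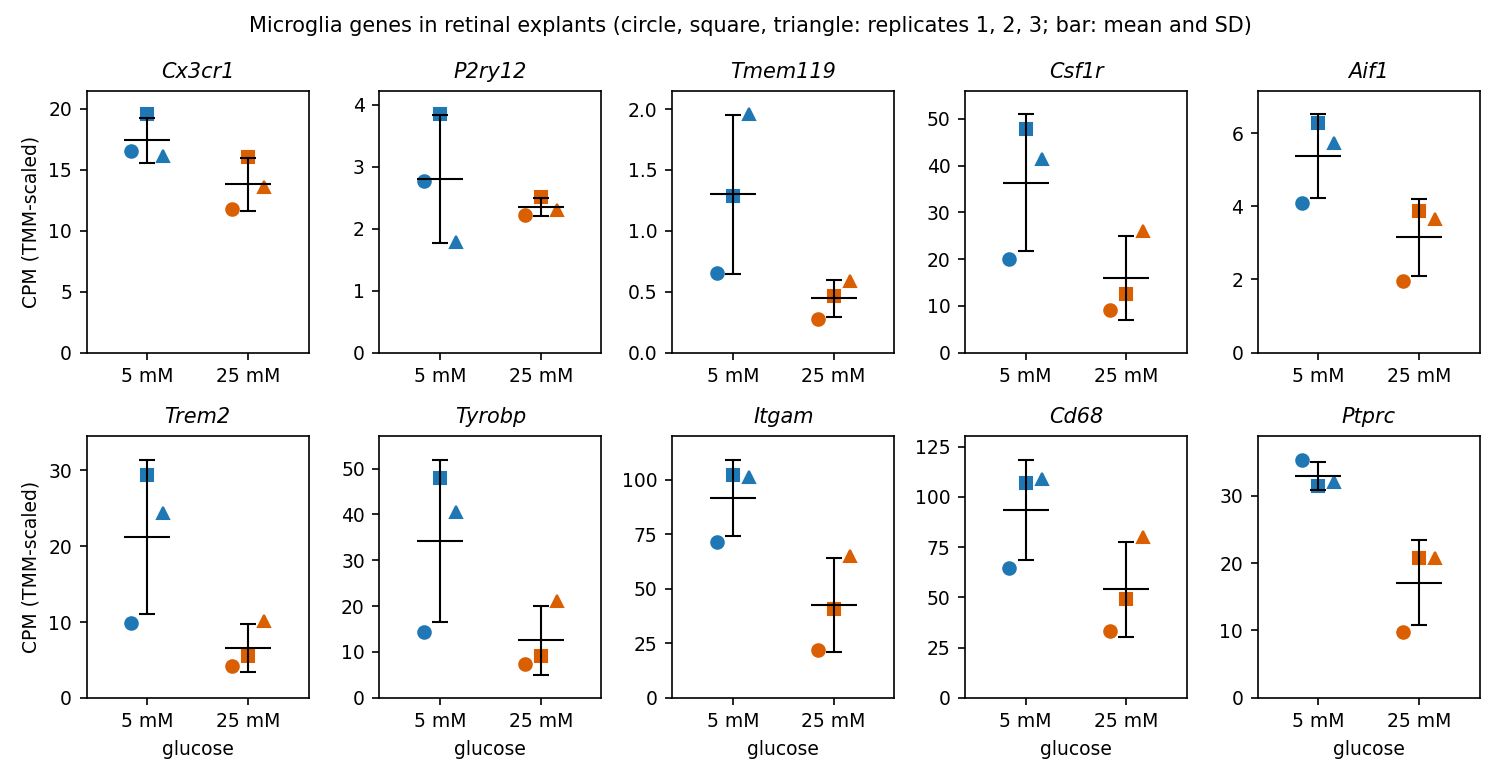
CPM of the 10 microglia genes (vertical axes, each starting at 0) in the 3 biological replicates at 5 mM glucose (blue) and at 25 mM glucose (orange), with replicates 1, 2 and 3 as circle, square and triangle and the mean ± SD in black. The groups do not overlap for Cx3cr1, Tmem119, Aif1, Itgam and Ptprc, and replicate 1 at 5 mM lies nearest to the 25 mM samples for Csf1r, Trem2, Tyrobp and Cd68.

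Promoter sequences are shown for 4 members, the pair most lowered among those with a listed promoter and both receptors whose level differed least, because PU.1, the transcription factor that sets the myeloid lineage, binds sites with the core GAGGAA. The RefSeq table of build GRCm38.p6 matched 7 members with 8 windows (Ptprc has 2), each from 250 bases before to 50 after the transcription start. Csf1r, Tyrobp and Tmem119 had no entry. GAGGAA on either strand was present in 5 of 8 windows, those of Aif1, Cd68, Itgam and Trem2 and 1 of those of Ptprc, and in 28.28% of all 32851 windows. TATAAA occurred in 1 of 8 windows (Ptprc) and in 13.62% of all, and GGGCGG in 2 of 8 (Cd68 and Itgam) and in 35.66% of all, again on either strand. None of these matches shared bases with another. The 250 bases before the start follow, 5′ to 3′ along the gene, with GAGGAA or its complement TTCCTC in capitals.
Trem2, chr17:48346151-48346400, plus strand: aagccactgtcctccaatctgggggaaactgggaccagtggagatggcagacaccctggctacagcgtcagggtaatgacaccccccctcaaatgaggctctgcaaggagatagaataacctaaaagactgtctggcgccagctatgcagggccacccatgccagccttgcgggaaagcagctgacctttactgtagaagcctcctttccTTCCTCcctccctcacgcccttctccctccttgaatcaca
Itgam, chr7:128062390-128062639, plus strand: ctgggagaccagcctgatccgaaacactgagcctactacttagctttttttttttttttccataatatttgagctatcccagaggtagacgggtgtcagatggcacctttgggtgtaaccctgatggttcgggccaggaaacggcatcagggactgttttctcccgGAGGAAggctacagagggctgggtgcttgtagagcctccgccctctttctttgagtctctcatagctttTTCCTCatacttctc
Cx3cr1, chr9:120068297-120068546, minus strand: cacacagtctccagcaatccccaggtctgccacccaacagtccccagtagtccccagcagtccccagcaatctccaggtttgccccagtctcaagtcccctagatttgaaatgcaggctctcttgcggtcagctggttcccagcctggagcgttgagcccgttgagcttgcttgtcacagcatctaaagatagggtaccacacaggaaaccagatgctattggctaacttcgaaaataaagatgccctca
P2ry12, chr3:59262986-59263235, minus strand: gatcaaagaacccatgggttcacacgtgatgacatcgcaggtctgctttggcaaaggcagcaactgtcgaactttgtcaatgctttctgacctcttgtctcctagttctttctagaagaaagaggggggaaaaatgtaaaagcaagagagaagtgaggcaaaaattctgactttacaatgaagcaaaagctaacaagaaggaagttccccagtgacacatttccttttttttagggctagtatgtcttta

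Trem2 held the core once before its start and Itgam held it 2 times, while Cx3cr1 and P2ry12 held it nowhere in their windows. These 4 were picked by their difference between glucose levels, and Tmem119, Tyrobp and Csf1r had no window. The contrast therefore cannot link the core to that difference, which was not tested. Aif1 and Cd68 held the core too, with log2 fold changes of -0.77 and -0.79. The match is of letters only, and binding was not measured here. The members' windows had a median GC content of 46.33%, and all windows 52.67%.

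Gene positions are those of the GENCODE M21 annotation on build GRCm38, where all 10 are protein-coding. Cx3cr1 (ENSMUSG00000052336, chromosome 9, 119901616 to 120069879, minus strand) encodes the receptor for the neuronal chemokine fractalkine. It was at 16.5, 19.5 and 16.1 CPM in replicates 1, 2 and 3 at 5 mM and at 11.8, 16.0 and 13.6 CPM at 25 mM. The groups met without crossing, since the highest 25 mM sample (16.01 CPM) lay just under the lowest 5 mM sample (16.15 CPM). The means were 17.4 ± 1.85 and 13.8 ± 2.14 CPM (SD, n = 3), and the log2 fold change of -0.34 (SE 0.21, 95% interval -0.83 to 0.16) had an FDR of 0.321 in edgeR's test.

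P2ry12 (ENSMUSG00000036353, chromosome 3, 59216272 to 59262871, minus strand), the ADP receptor that steers microglial processes to sites of injury, differed least. It was at 2.76, 3.85 and 1.79 CPM at 5 mM and at 2.23, 2.52 and 2.31 CPM at 25 mM. The 3 samples at 25 mM all fell inside the range at 5 mM, and the interval of the log2 fold change of -0.25 (SE 0.33) reached from -1.003 to 0.50, with an FDR of 0.628 by edgeR. Its counts were low, at 84 to 170 per sample.

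Tmem119 (ENSMUSG00000054675, chromosome 5, 113793729 to 113800516, minus strand) encodes a membrane protein that, in neural tissue, distinguishes resident microglia from macrophages that come in from blood. It was the scarcest member, at 0.650, 1.29 and 1.96 CPM at 5 mM and at 0.278, 0.465 and 0.588 CPM at 25 mM. All 25 mM samples were under all 5 mM samples, with 12, 17 and 26 counts against 36, 57 and 92. The log2 fold change was -1.54 (SE 0.49, 95% interval -2.65 to -0.43) with an unadjusted p of 0.0126 and an FDR of 0.0960 by edgeR. The 3 markers of the resting state thus spanned -0.25 to -1.54, with intervals that overlapped.

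Csf1r (ENSMUSG00000024621, chromosome 18, 61100598 to 61132149, plus strand) is the receptor for both Csf1 and Il34, on which microglial survival depends. It was at 19.9, 47.7 and 41.4 CPM at 5 mM and at 9.06, 12.5 and 26.1 CPM at 25 mM. Replicate 1 at 5 mM lay under replicate 3 at 25 mM, so the groups overlapped by that pair. The means were 36.4 ± 14.6 and 15.9 ± 9.01 CPM (SD, n = 3). This gave a log2 fold change of -1.19 (SE 0.45, 95% interval -2.22 to -0.17), with an unadjusted p of 0.0278 and an FDR of 0.131 by edgeR. Exons of Hmgxb3 overlap those of Csf1r on the opposite strand, as Gm33858 and Med12l overlap Cx3cr1 and P2ry12 over a short stretch, and whether the counting used strand is not given in the sources used here.

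Trem2 (ENSMUSG00000023992, chromosome 17, 48346401 to 48354147, plus strand), the lipid-sensing receptor of phagocytic microglia, had the lowest p of the members and the largest fitted difference in the test as reported. Its lead depended on the setting. Over the 20 alternatives run, its log2 fold change ranged from -2.15 to -1.25. In batch 1 alone it was -1.90, where Tmem119 was at -2.18. It was at 9.90, 29.5 and 24.4 CPM at 5 mM and at 4.15, 5.47 and 10.2 CPM at 25 mM. Replicate 1 at 5 mM fell just under replicate 3 at 25 mM, and the other 5 mM samples were over every 25 mM sample by a factor above 2. The log2 fold change was -1.68 (SE 0.47, 95% interval -2.76 to -0.61), with an unadjusted p of 0.00681 and an FDR of 0.0776 by edgeR.

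Tyrobp (ENSMUSG00000030579, chromosome 7, 30413760 to 30417585, plus strand), the adaptor that carries the Trem2 signal into the cell, was at 14.3, 48.0 and 40.5 CPM at 5 mM and at 7.28, 9.14 and 21.2 CPM at 25 mM. The order of the samples was that of Trem2, with replicate 1 at 5 mM under replicate 3 at 25 mM. The log2 fold change of -1.45 (SE 0.52, 95% interval -2.65 to -0.25) had an unadjusted p of 0.0238 and an FDR of 0.123 by edgeR.

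Cd68 (ENSMUSG00000018774, chromosome 11, 69664213 to 69666153, minus strand) encodes a lysosomal glycoprotein that marks phagocytic cells. It was at 64.8, 107 and 109 CPM at 5 mM and at 33.2, 49.1 and 79.8 CPM at 25 mM, and again only replicate 1 at 5 mM overlapped the other group. The log2 fold change was -0.79 (SE 0.34, 95% interval -1.56 to -0.02), with an FDR of 0.166 by edgeR.

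Aif1 (ENSMUSG00000024397, chromosome 17, 35170991 to 35176068, minus strand), which encodes the actin-binding protein Iba1 used to stain microglia, was at 4.10, 6.29 and 5.74 CPM at 5 mM and at 1.95, 3.86 and 3.66 CPM at 25 mM. The groups did not overlap, and the log2 fold change of -0.77 (SE 0.34, 95% interval -1.54 to 0.01) had an FDR of 0.177 by edgeR.

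Itgam (ENSMUSG00000030786, chromosome 7, 128062640 to 128118491, plus strand) encodes CD11b, the alpha chain of complement receptor 3. It was at 71.6, 102 and 101 CPM at 5 mM and at 21.9, 40.5 and 64.8 CPM at 25 mM, with no overlap. The log2 fold change was -1.11 (SE 0.36, 95% interval -1.94 to -0.28), with an FDR of 0.100 by edgeR. Exons of another annotated gene, Gm49368, cover 3450 bases of it on the same strand, so the split of reads between them is uncertain. Gm49368 had 0 to 34 counts per sample against 944 to 4768 for Itgam.

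Ptprc (ENSMUSG00000026395, chromosome 1, 138062861 to 138175708, minus strand) encodes CD45, the tyrosine phosphatase found on all nucleated blood-lineage cells. It was at 35.4, 31.5 and 32.0 CPM at 5 mM and at 9.76, 20.7 and 20.7 CPM at 25 mM, with no overlap. At 5 mM its spread between summed samples was the smallest of the members, with a coefficient of variation of 6.41%, where that of Trem2 was 47.8%. The technical replicates behind these sums differed more, at 47.5 CPM in batch 1 and 17.3 in batch 2 of replicate 1. The log2 fold change was -0.95 (SE 0.29, 95% interval -1.63 to -0.27), with an unadjusted p of 0.0116 and an FDR of 0.0933 by edgeR.

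The number of called members depended on 1 sample and on the test. Without replicate 1 at 5 mM, 5 of 10 members were called as lower (Tmem119, Csf1r, Trem2, Tyrobp and Itgam), and 14.9% of all genes tested were. DESeq2 in place of edgeR called 5 of 10 (Tmem119, Trem2, Tyrobp, Itgam and Ptprc), and 9.54% of all genes as lower. Trem2 was called in 6 of the 20 settings run and Itgam in 5, and Cx3cr1, P2ry12, Aif1 and Cd68 were called in 0. Without the batch 2 library of 5 mM replicate 1, 0 of 10 members were called and their median was -1.17. Without the batch 1 library of 25 mM replicate 2, 0 of 10 were called and the median was -0.86, and no gene of all those tested passed the threshold.

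The difference between glucose levels was fitted in each batch alone, since every sample has a library in both. In batch 1 the 10 log2 fold changes were all below 0, with a median of -1.67, and 5 of 10 members were called (Csf1r, Trem2, Tyrobp, Itgam and Ptprc), where 10.1% of all genes were called as lower. In batch 2 the median was -0.50, 9 of 10 values were below 0 and 0 of 10 members were called. The value of Itgam was -2.02 in batch 1 and -0.33 in batch 2, and that of Ptprc was -1.70 and -0.23. Trem2 was closer in both, at -1.90 and -1.52. P2ry12 had opposite signs, at -0.74 and 0.57.

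**Figure D2:**
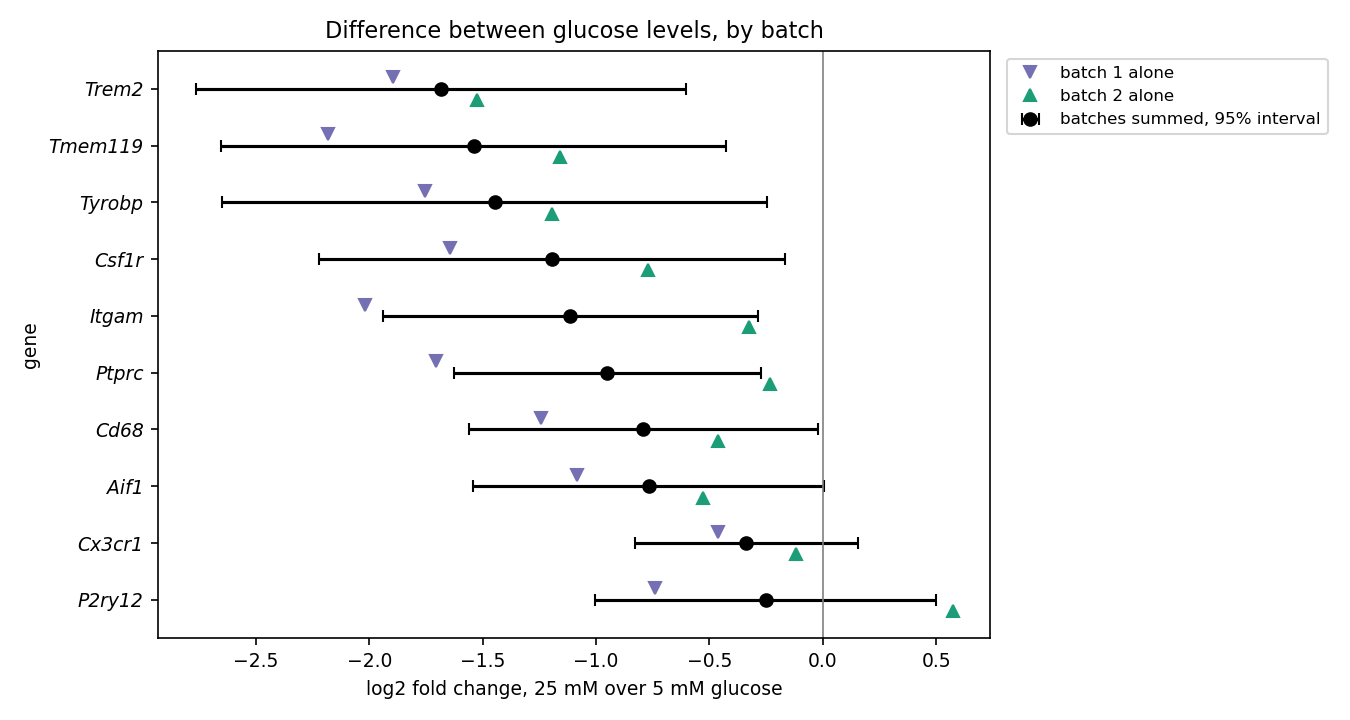
Log2 fold change of 25 mM over 5 mM glucose (horizontal axis) for each member (vertical axis), with the batches summed (black, with the 95% interval) and in each batch alone (triangles). Batch 1 lies to the left of batch 2 for 10 of 10 members, and Aif1, Cx3cr1 and P2ry12 have intervals that include 0.

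The fitted value was lower in batch 1 than in batch 2 for 10 of 10 members. The test of that difference, the interaction of glucose and batch over the 12 libraries with the biological replicate as block, called 0 of 18725 genes at FDR under 0.05 by edgeR. It gave an unadjusted p under 0.05 for 16.32% of all genes and for 3 of 10 members, Csf1r, Itgam and Ptprc. The lowest member FDR was 0.206, for Ptprc.

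The single libraries parted between batches in several samples of both groups. At 25 mM replicate 2, Cd68 was at 12.04 CPM in batch 1 and at 73.0 in batch 2, and Itgam was at 17.0 and 56.0. The batch 1 library of that sample had the highest mitochondrial share of the 12, 15.4%, and the lowest total, 14815285 counts. At 25 mM replicate 3, Itgam was at 38.9 CPM in batch 1 and at 86.4 in batch 2. At 5 mM replicate 2 it was the other way, at 131 and 62.9, and so was 5 mM replicate 1, with Ptprc at 47.5 CPM in batch 1 and 17.3 in batch 2. Cx3cr1 and P2ry12 did not follow the others in 25 mM replicate 2. There Cx3cr1 was at 18.1 CPM in batch 1 and at 15.4 in batch 2, and P2ry12 was at 3.24 and 2.14. The part of the batch, of the mitochondrial share or of the library total in these values was not tested.

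**Figure D3:**
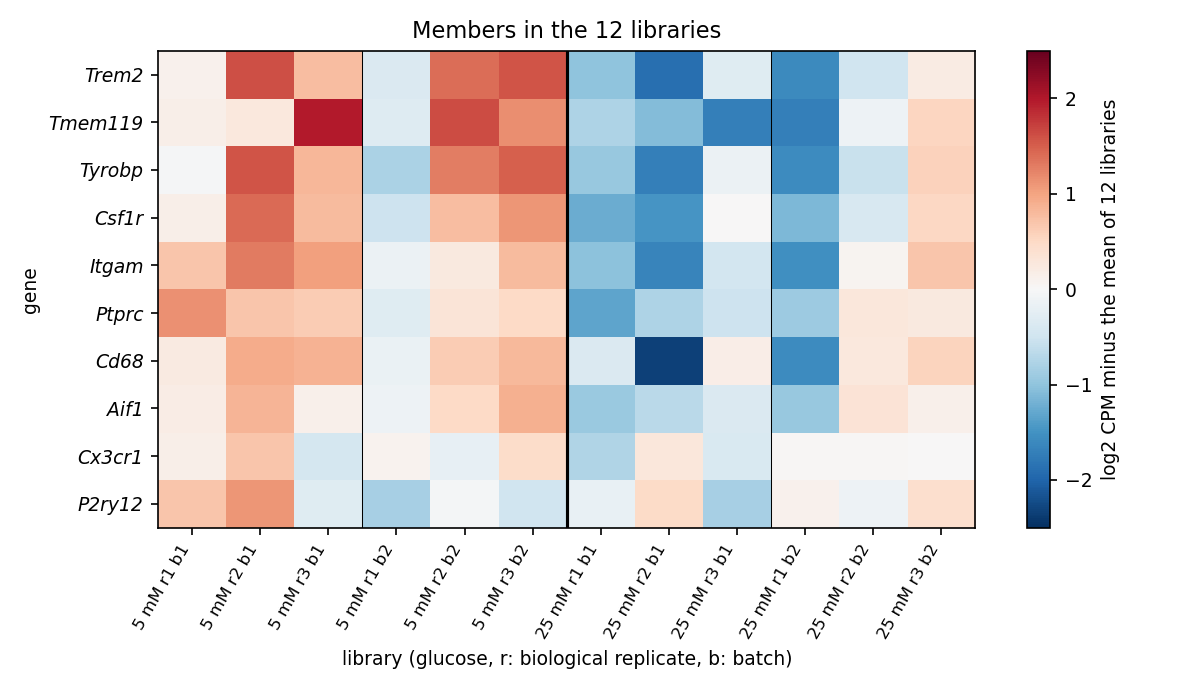
Log2 CPM of each member (rows) in the 12 libraries (columns, by glucose level, batch and replicate), as the difference from the member's mean over the 12 libraries on the colour scale. Batch 1 of 25 mM replicate 2 holds the lowest Cd68 value, and the rows of Cx3cr1 and P2ry12 show the least contrast between the glucose levels.

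Over the 12 libraries, log2 CPM of the 45 pairs of members had a median Pearson r of 0.741, from -0.07 to 0.986, and 17 pairs were over 0.8. The highest was that of Trem2 with Tyrobp. Cx3cr1 had a median r of 0.302 with the other members and P2ry12 of 0.156, where the remaining 8 had medians of 0.718 to 0.887. These values are a description, since the 12 libraries are 6 samples in pairs, hold both glucose levels and share depth and scaling. The 8 genes outside the members whose log2 CPM was most like the members' mean over the 12 libraries were Cd300c2, Itgb2, Grasp, Tmem252, Cnn2, Pdzrn3, Rassf2 and Vav1, with r from 0.984 to 0.992.

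Ratios of members within a sample were compared because they do not depend on the scaling of the sample. Ptprc over Cx3cr1 was 1.91 ± 0.270 at 5 mM and 1.22 ± 0.354 at 25 mM (SD, n = 3), and the groups did not overlap. Tyrobp over Trem2 was 1.58 ± 0.115 at 5 mM and 1.84 ± 0.218 at 25 mM, also without overlap. Trem2 over Cx3cr1 was 0.598, 1.51 and 1.51 at 5 mM and 0.353, 0.342 and 0.752 at 25 mM, and overlapped by replicate 1 at 5 mM. Exact two-sided permutation tests gave p = 0.1 for the first pair of ratios, the smallest that 3 against 3 samples allow, and p = 0.2 for Trem2 over Cx3cr1. Of the 10 ratios between members that were computed, 8 overlapped between groups, with p from 0.2 to 0.8, and the design cannot reach a p under 0.05.

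To compare levels between genes, TPM (transcript levels scaled by length and by the total) were computed from the transcript table. At 5 mM the order of mean levels was Cd68 at 174 ± 52.4 TPM, Tyrobp at 113 ± 61.7, Itgam at 39.0 ± 8.65, Trem2 at 24.4 ± 12.3, Csf1r at 19.95 ± 8.59, Ptprc at 14.0 ± 0.543, Aif1 at 12.4 ± 3.20, Cx3cr1 at 9.35 ± 1.35, P2ry12 at 2.49 ± 0.814 and Tmem119 at 1.05 ± 0.471 (SD, n = 3). Only the last 2 steps, from Cx3cr1 to P2ry12 and from P2ry12 to Tmem119, separated the ranges of neighbours. Within single samples at 5 mM, each step from Cd68 down to Csf1r held in 3 of 3 replicates. The steps from Csf1r to Ptprc and from Ptprc to Aif1 held in 2 of 3. Cd68 and Tyrobp stood at the top and P2ry12 and Tmem119 at the bottom in both groups. At 25 mM Cd68 was still highest, at 106 ± 47.8 TPM, followed by Tyrobp at 44.3 ± 27.8 and Itgam at 19.0 ± 9.86. Csf1r, Trem2, Cx3cr1, Aif1 and Ptprc lay between 9.31 and 7.77 TPM with overlapping ranges, P2ry12 was at 2.39 ± 0.0569 and Tmem119 at 0.410 ± 0.138. Uncultured retina was not among these samples, so the order at isolation is not known here.

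Annotated transcripts of a member were compared by their share of the gene's counts in the transcript table. Trem2 has a main coding transcript, Trem2-201 (1088 bases), and a transcript that keeps an intron and is annotated as non-coding, Trem2-203 (4784 bases). Trem2-201 held 48.5%, 61.0% and 60.1% of the gene's transcript counts at 5 mM and 33.5%, 37.9% and 37.6% at 25 mM. Trem2-203 held 41.7%, 22.9% and 23.5% at 5 mM and 55.2%, 56.9% and 42.1% at 25 mM. The shares of both transcripts did not overlap between groups, but for Trem2-203 replicate 1 at 5 mM came within 1 percentage point of replicate 3 at 25 mM. A longer transcript gives more counts per molecule, so the share of Trem2-203 among Trem2 molecules is smaller than its share of counts.

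**Figure D4:**
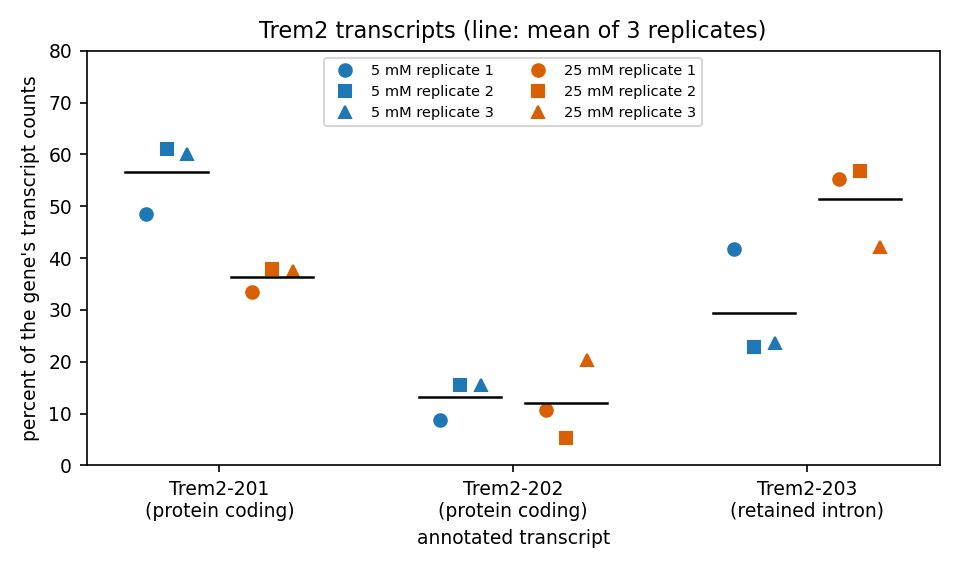
Share of the counts of Trem2 transcripts (vertical axis, percent) held by each annotated transcript with at least 10% of the gene's counts (horizontal axis), in the 3 replicates at 5 mM (blue) and 25 mM glucose (orange), with the mean as a line. Trem2-201, coding, averages 56.5% at 5 mM and 36.3% at 25 mM, and Trem2-203, with a retained intron, 29.4% and 51.4%. These are shares of counts and not of molecules.

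Scaled to CPM, the summed coding transcripts of Trem2 were at 5.42, 17.6 and 14.4 at 5 mM and at 2.07, 2.88 and 5.86 at 25 mM. The retained-intron transcript was at 3.95, 5.28 and 4.49 CPM at 5 mM and at 2.58, 3.799 and 4.27 at 25 mM. Replicate 1 at 5 mM fell under replicate 3 at 25 mM in both kinds. These values come from the transcript counts and do not sum to the gene's CPM, since the gene values appear adjusted for transcript length. The shares that follow are of counts, not scaled by transcript length. Of coding and retained-intron counts together, the retained-intron share was 29.7% ± 10.8 at 5 mM and 51.5% ± 8.15 at 25 mM (SD, n = 3). The difference was 21.9 percentage points, with p = 0.1 in an exact two-sided permutation test. The groups were apart only by a near tie, at 42.14% in 5 mM replicate 1 and 42.15% in 25 mM replicate 3. In batch 1 the difference in share was 23.4 points and the groups overlapped (45.2% in 5 mM replicate 1 and 42.4% in 25 mM replicate 3). In batch 2 it was 24.9 points and they did not. A higher share at 25 mM without overlap was not particular to Trem2: of 4934 genes with at least 60 counts of each kind on average, 36.6% showed it, and 0.872% showed a lower share without overlap. The median difference over these genes was 3.08 points. Of the other members, Ptprc could be compared, at 9.57% ± 2.45 and 15.7% ± 7.95, with overlap.

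The transcripts of the other members are given by their mean share or range. Csf1r-201 held 95.6% of the counts at 5 mM and 93.2% at 25 mM, Aif1-203 held 94.7% and 94.6%, and Tmem119-201 held 99.1% at 5 mM and the whole count at 25 mM. Itgam-203 held 64.2% to 77.2% at 5 mM and 78.4% to 99.4% at 25 mM. Itgam-201, also coding and of near the same length, held 16.7% to 20.3% and 0.003% to 11.3%. No share over all genes is set beside these shifts. Cd68-201 averaged 78.3% and 68.6%, and the non-coding Cd68-203 averaged 17.0% and 24.9% with ranges that met at 21.4% to 21.5%. The coding pairs Tyrobp-201 and Tyrobp-202, Ptprc-203 and Ptprc-204, and Cx3cr1-201 and Cx3cr1-202 had overlapping ranges, with Cx3cr1-201 at 56.2% and 64.9%. P2ry12-202 held 9.43% to all of the gene's counts at 5 mM, a range that took in the 49.3% to 57.0% at 25 mM. Such shares are estimates because transcripts of a gene share most of their bases.

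Other genes of microglia were also mostly lower at 25 mM, with few calls. Of 19 tested in a list of 20 further microglia genes, 16 were below 0, 9 had an unadjusted p under 0.05 as lower, and the median log2 fold change was -0.80. The only call in that list was in the other direction, where 1.47% of all genes were called as higher: Lpcat2, an enzyme that makes platelet-activating factor and phosphatidylcholine, rose from 31.1 ± 6.74 to 68.4 ± 7.12 CPM (log2 1.14, SE 0.20, FDR 0.0403 by edgeR). The list's summed level was 630 to 786 CPM at 5 mM and 294 to 547 at 25 mM. Among 10 transcription factors of microglia, 8 were below 0, 7 with p under 0.05 and 0 called, and the median was -0.95. Spi1, which encodes PU.1, was at 3.90 ± 2.09 and 1.45 ± 0.943 CPM (log2 -1.42, FDR 0.1403). Sall1, which sets microglial identity, had a log2 value of -1.54 with an FDR of 0.0791, and Irf8 had 0.12 with an FDR of 0.770.

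The signalling partners of Trem2 and Tyrobp and the genes that microglia turn on around damaged neurons were mostly below 0 as well. Of 15 signalling genes, 14 were below 0 and 10 had p under 0.05 as lower, with a median of -1.24. One was called: Pik3cg, the gamma catalytic subunit of phosphoinositide 3-kinase in blood-lineage cells, fell from 17.7 ± 2.83 to 5.70 ± 1.87 CPM (log2 -1.64, SE 0.31, FDR 0.0449 by edgeR). Of 18 genes of disease-associated microglia, 16 were below 0, 13 with p under 0.05 as lower, and the median was -0.90. Of all genes, 15.5% had such a p as lower. The list summed to 7297 to 10265 CPM at 5 mM and the members to 240 to 397. Which retinal cells made this RNA was not measured. Lpl, the lipase that releases fatty acids from lipoproteins, was called, falling from 122 ± 20.5 to 54.0 ± 10.5 CPM (log2 -1.17, SE 0.21, FDR 0.0400). The calls of Pik3cg, Lpl and Lpcat2 were lost, with those of every other gene, when replicate 2 or 3 at 5 mM or replicate 1 or 2 at 25 mM was left out. Genes of proliferation were all below 0 (10 of 10, median -1.23), with 0 called.

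Ligands for receptors of microglia were also read, of which Csf1, Il34 and Cx3cl1 pair with members. Whole retina was measured, so the cells that made each ligand are not known here. Of 10 ligands, 9 were below 0, 6 with p under 0.05 and 0 called, with a median of -0.68. For Csf1r, Csf1 was at 51.2 ± 7.17 and 34.2 ± 9.93 CPM (log2 -0.58, FDR 0.156), and Il34 was at 5.70 ± 3.21 and 1.29 ± 0.144 CPM (log2 -2.14, SE 0.50, FDR 0.0618). The 3 samples of Il34 at 25 mM, at 1.15 to 1.44 CPM, lay under the 3 at 5 mM, at 2.01 to 7.81 CPM. Cx3cl1, the ligand of Cx3cr1, had a log2 value of -0.95 (FDR 0.103) and its groups overlapped. Tgfb1, Tgfb2 and Tgfb3, which maintain the resting state, had -1.62, -0.30 and 0.02. The restraining signals Cd200 and Cd47 had -1.11 (FDR 0.0767) and -0.19, and Gas6 and Pros1, which bridge dying cells to phagocyte receptors, had -0.48 and -0.78.

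**Figure D5:**
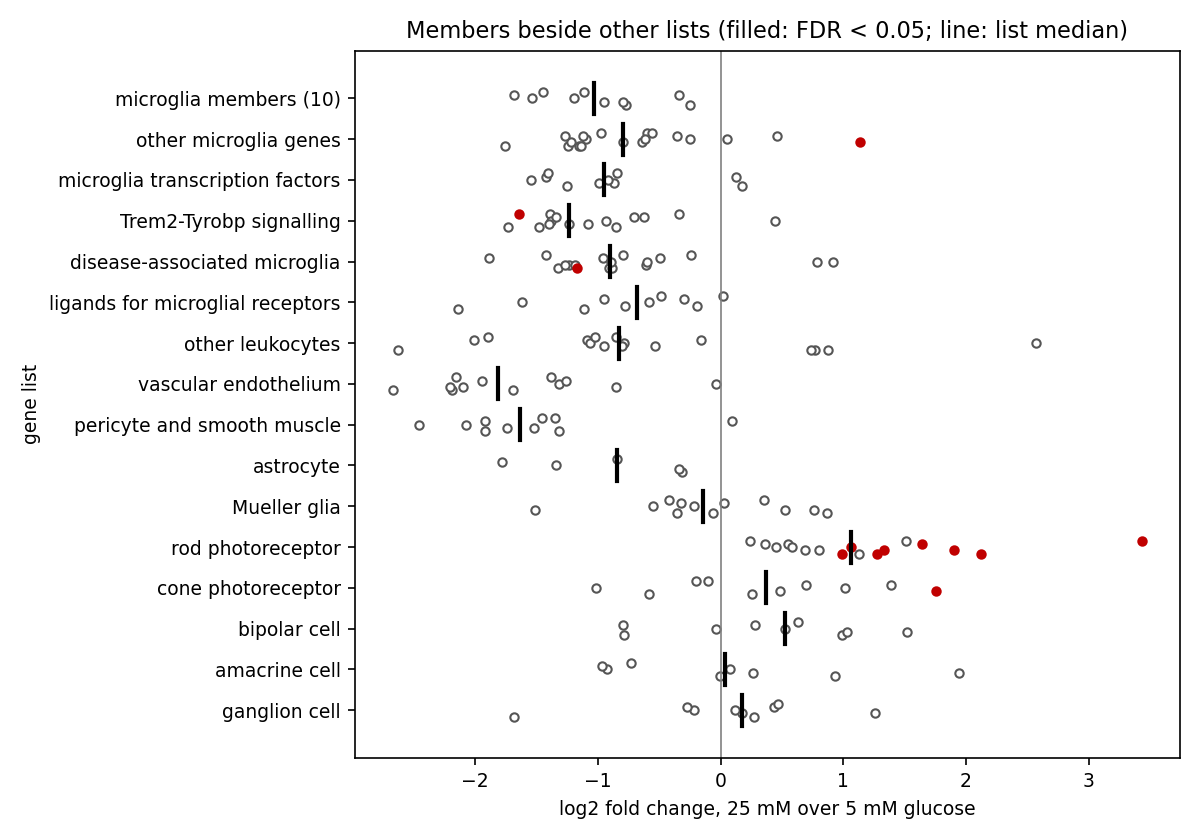
Log2 fold change of 25 mM over 5 mM glucose (horizontal axis) of every tested gene in each list (vertical axis), with the list median as a line and filled points for genes called at FDR under 0.05. The members have a median of -1.03 with no filled point, the vascular endothelium list -1.82, and the rod photoreceptor list 1.06 with 8 filled points.

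Markers of other cells differed beside the members. Of 24 genes of other leukocytes (border macrophages, monocytes, lymphocytes, granulocytes and mast cells), 16 were tested, 12 of them were below 0 and 0 were called, with a median of -0.83. Their summed level was 97.6 to 111 CPM at 5 mM and 38.2 to 84.5 at 25 mM. Mcpt4 and Cpa3 of mast cells were at 0 in every sample. The macrophage receptors Mrc1 and Cd163 had log2 values of -0.95 and -0.54, and Lyve1 had 0.74. The vascular endothelium list had a median of -1.82, with 12 of 12 genes below 0 and 0 called, and a summed level of 1333 to 2491 CPM at 5 mM and 479 to 1096 at 25 mM. Rod genes went the other way, with 17 of 17 above 0, 8 called as higher and a median of 1.06, and their sum was 4648 to 7275 CPM at 5 mM and 11533 to 15513 at 25 mM. The part of the cell makeup of the explants in the members' values was not tested.

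The summed level of the 10 members was 240, 397 and 374 CPM at 5 mM and 101, 160 and 243 CPM at 25 mM. Over the sum of the rod genes it was 5.44% ± 0.274 at 5 mM and 1.37% ± 0.726 at 25 mM (SD, n = 3), without overlap. Over the vascular endothelium it was 16.7% ± 1.52 and 20.7% ± 1.72, without overlap and higher at 25 mM. Over Mueller glia, the main glia of the retina, it was 7.32% ± 1.07 and 5.12% ± 1.28, with overlap. Over ganglion cell genes it was 136% ± 61.9 and 58.6% ± 34.1, and over amacrine cell genes 85.9% ± 24.2 and 71.3% ± 48.7, both with overlap. Exact two-sided permutation tests gave p = 0.1, the smallest that 3 against 3 samples allow, for the ratios over rods and endothelium, p = 0.2 over Mueller glia and ganglion cells, and p = 0.7 over amacrine cells.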

How the data were processed

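Total RNA of explant retinas was made into stranded low-input libraries (Takara Pico kit) and sequenced in paired reads. The authors deposited tables of estimated counts per gene and per transcript for 12 libraries, with GRCm38 as the build in their labels; the counting tool for these values is not given in the sources used here. All nonzero gene values are fractional, and they were 0.866 to 1.22 times (5th to 95th percentile) the sum of the gene's transcripts, so they appear adjusted for transcript length. Gene names, types and positions came from GENCODE M21, which matched 90.7% of 53707 genes.

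Technical replicates were summed to 3 samples per group, rounded and tested with edgeR 4.0.16 (TMM, filterByExpr, quasi-likelihood F-test with glmQLFit as in version 3, Benjamini-Hochberg over 21061 genes, FDR under 0.05) in R 4.3.3. edgeR was chosen after the study's methods. The script was tested on simulated data. DESeq2 1.42.0 and limma 3.58.1 served as alternatives. CPM used TMM factors (0.922 to 1.06), and log2 CPM a prior count of 2. TPM were computed here from the transcript table with annotated lengths.

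The replicate numbers are shared by both groups, but the labels do not say that a number marks a shared animal or litter, and p-values measure only the spread between these samples. The members, the lists and the rule for named genes (all members, all ligands, and of other lists up to 4 called genes or else the first 3) were chosen with earlier results of these data known.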

Additional observations from a re-analysis of the deposited data

How the results depend on the processing

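All 10 members but P2ry12 had a log2 fold change below 0 in each of the 20 alternatives run. P2ry12 was above 0 in 3, at 0.57 in batch 2 alone, 0.14 from the transcript table summed per gene and 0.035 without replicate 2 at 5 mM, and it ranged from -0.50 to 0.035 when each replicate was left out in turn. The members' median was -1.03, moved to -1.67 in batch 1 alone and to -0.50 in batch 2 alone, and ran from -1.37 to -0.73 when each replicate was left out.

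The count of calls was less stable than the values. Of all genes, 417 were called in the test as reported, 3489 by DESeq2, 1979 with no filter on low counts, 2918 with the 12 libraries as separate samples and a batch term, 3279 in batch 1 alone, 0 in batch 2 alone and 0 to 5845 when a replicate or a doubted library was left out (1731 without the batch 2 library of 5 mM replicate 1, 0 without the batch 1 library of 25 mM replicate 2). The members called were 0 as reported, 5 by DESeq2, 2 with no filter, 3 with the 12 libraries, 5 in batch 1 alone and 0 to 5 when a replicate was left out. The 12-library test counts technical replicates as samples, so its p-values are too small. Size factors of DESeq2, library totals, limma-voom, the later quasi-likelihood fit of edgeR, a minimum of 10 counts and the transcript table called 0 members. Where 0 genes were called, the cause was not tested.

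With the replicate number as a block, 990 genes in either direction and 2 members (Trem2 and Itgam), both as lower, were called. Same-numbered samples had correlations of their deviations of -0.01, -0.45 and 0.28, and not every sample correlated best with its own number, so the numbers were not taken as pairs.

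With 3 samples per group and a biological coefficient of variation of 0.297 over all genes, the intervals of Cx3cr1, P2ry12 and Aif1 include 0 and do not show that these genes did not differ. Tmem119, at 12 to 92 counts per sample, and P2ry12 rest on few reads. The cell makeup of a sample was not measured. The retained-intron shares were tried in each batch and without each replicate as alternatives chosen after seeing the data, and the Trem2 difference stayed between 18.6 and 28.1 points.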
